A study of Mus musculus with 12 samples.

Results

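Mitochondrial complex I, the NADH:ubiquinone oxidoreductase, was followed through the mouse genes whose symbol starts with Nduf. A gene was taken when at least 1 probe set listed it as its single symbol, and was read from its brightest such probe set by mean log2 intensity over the 12 arrays. This gave 44 of the 18193 genes on the arrays: 9 named Ndufs or Ndufv (called core by symbol), 27 named Ndufa, Ndufb or Ndufc (accessory) and 8 named Ndufaf (assembly factors). They had 88 probe sets in all, and 22 genes had more than 1. Ndufa11 and Ndufs6 were on probe sets shared with other symbols, so these subunits are not among the 44.

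Complex I takes electrons from NADH, passes them along a flavin and a chain of iron-sulphur clusters to ubiquinone, and pumps protons across the inner mitochondrial membrane. Its catalytic subunits are partly encoded in the nucleus and partly in mitochondrial DNA, and accessory subunits surround them. Assembly factors are not part of the finished enzyme but build its modules: the NADH module, the quinone module and the proximal and distal membrane arms. The symbols do not follow these roles exactly: Ndufs4, Ndufs5 and Ndufv3 are accessory subunits by function, and Ndufa4 is now known as a subunit of cytochrome oxidase.

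All samples were TSC2-/- mouse embryonic fibroblasts (MEFs), which lack an inhibitor of the growth-promoting kinase mTORC1, so no group had TSC2. Cells received 20 nM of the mTORC1 inhibitor rapamycin for 14 h (3 arrays) or DMSO vehicle for 14 h (3 arrays). Confluent cells of the same kind were exposed for 10 h to an adenovirus carrying PGC-1alpha, a transcriptional coactivator of mitochondrial genes (3 arrays), or carrying GFP (3 arrays), and were collected 14 h after a change of medium. The series title names mitochondrial gene expression under mTOR, with the YY1/PGC-1alpha complex, as the subject. The series calls the 3 arrays of a group biological triplicates.

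Median intensity was between 77.5 and 81.0 on every array. All 10 fibroblast markers lay above the array median, while 2 of 4 macrophage, 3 of 4 endothelial, 1 of 4 epithelial, 2 of 4 skeletal muscle and 3 of 4 brown fat markers lay below it. With rapamycin 5 of the 10 fibroblast, 2 of the 4 epithelial and 1 of the 4 macrophage markers were raised and 1 of the 4 muscle markers was lowered; with PGC-1alpha no marker passed the test. Their part in the results below was not tested. The Gapdh 3'/5' signal ratio was 0.807 to 0.826 on rapamycin and 0.840 to 0.861 on vehicle arrays, and 0.894 to 0.905 on PGC-1alpha and 0.865 to 0.879 on GFP arrays; its part was not tested either. The Tsc2 probe set read 182 to 217 on rapamycin, 248 to 278 on vehicle, 233 to 257 on PGC-1alpha and 203 to 252 on GFP arrays, and with no TSC2+/+ array it does not check the genotype. Ppargc1a, which encodes PGC-1alpha, read 2295, 2183 and 2554 on the PGC-1alpha arrays and 81.0, 81.0 and 101 on the GFP arrays. By the spread of log2 differences between arrays, GFP replicate 3 was closer to each PGC-1alpha array (SD 0.142 to 0.151) than to GFP replicates 1 and 2 (SD 0.155 and 0.167).

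Under rapamycin the Nduf genes divided. Limma was used with Benjamini-Hochberg adjustment over all 45037 probe sets and a threshold of 0.05. Of the 44 genes, 10 rose and 14 fell relative to vehicle. With arrays scaled on bacterial spike controls instead, 0 rose and 26 fell. Over all probe sets, that scaling gave 1448 raised and 18556 lowered, against 5168 and 6301 without it. The spikes were read after RMA and do not measure RNA per cell. Quantile normalization over all 12 arrays gave 13 Nduf genes raised and 11 fallen. The raised count was 10 without rapamycin replicate 1 and 4 to 6 without any 1 of the other 5 arrays, and the fallen count 11 to 14. Of the Nduf genes 22.7% rose and 31.8% fell, against 11.3% and 18% of all 18193 genes. Most Nduf probe sets were bright, and the background differs with brightness. Among genes with a mean log2 intensity of 10 or more, a limit added after the values were seen, 27.6% of the 29 Nduf genes above it rose and 24.1% fell, against 16.7% and 38.5% of all genes. The median log2 change was -0.05 over the 44 genes and -0.01 over all genes. With spike scaling the median of all probe sets itself shifted by -0.19 for rapamycin and by 0.16 for PGC-1alpha, and each change given here is to be read against that of the other genes. The arrays carry bulk RNA, in which fewer cells of a kind and less RNA per cell cannot be told apart.

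**Figure D1:**
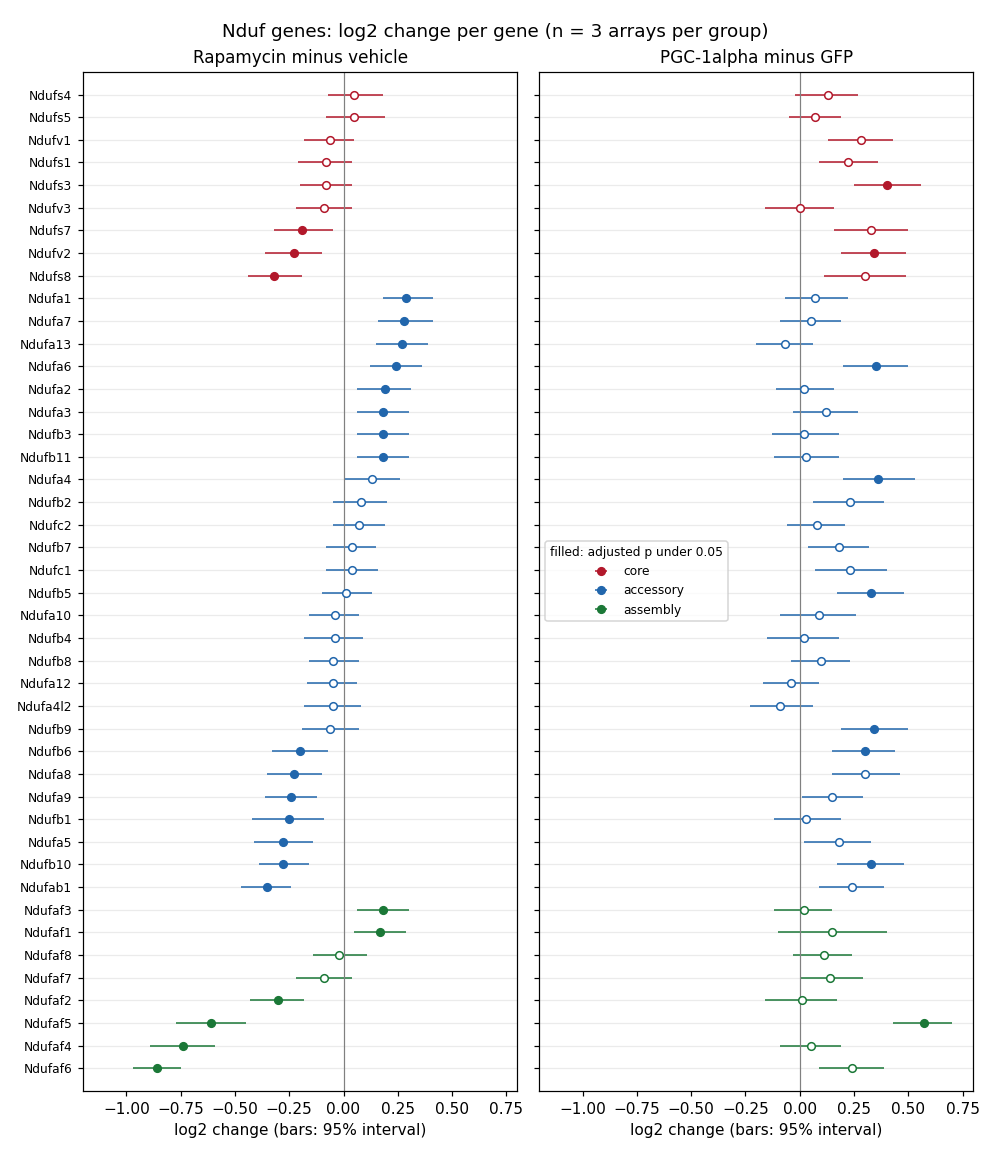
Log2 change of each of the 44 Nduf genes, rapamycin minus vehicle on the left and PGC-1alpha minus GFP on the right, as limma estimates with 95% intervals (n = 3 arrays per group). Filled points passed an adjusted p of 0.05. The lowest rapamycin values are those of Ndufaf6, Ndufaf4 and Ndufaf5, and the 10 filled points above 0 on the left lose their call with spike scaling. On the right 40 of 44 points lie above 0.

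The assembly factors held the widest changes. Of 8, 4 fell (50%) with rapamycin and 2 rose (25%), against 18% and 11.3% of all genes. With spike scaling, which lowered 18556 of all 45037 probe sets, 6 fell and 0 rose. Ndufaf6, needed in human cells for an early step of complex I assembly, had intensities of 92.1, 92.6 and 92.5 on the rapamycin arrays and 167, 165 and 171 on the vehicle arrays. Every rapamycin array lay below every vehicle array, and the log2 change was -0.86 ± 0.05 (SE; limma, adjusted p = 2.1e-07), the lowest of the 44 genes. Ndufaf4, which acts with Ndufaf3 early in assembly, read 489, 509 and 523 with rapamycin and 790, 948 and 819 with vehicle. The groups did not overlap, with a log2 change of -0.74 ± 0.07 (SE; adjusted p = 5.1e-06), and its dimmer probe set fell by 1.06 on the log2 scale (adjusted p = 2.5e-07). Ndufaf5, known in human cells to hydroxylate an arginine of NDUFS7, read 154, 173 and 148 with rapamycin and 227, 266 and 233 with vehicle, a log2 change of -0.61 ± 0.07 (SE; adjusted p = 3.7e-05). Ndufaf2, a paralog of the subunit Ndufa12 that binds a late intermediate, read 363, 381 and 375 with rapamycin and 455, 487 and 437 with vehicle. Its change of -0.30 ± 0.06 (SE; adjusted p = 0.0015) was again without overlap between groups.

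The other assembly factors differed from these. Ndufaf1, a member of the complex that builds the proximal membrane arm, and Ndufaf3 rose, by 0.17 ± 0.06 and 0.18 ± 0.06 on the log2 scale (SE; adjusted p = 0.037 and 0.031). With spike scaling both values turned to -0.02 and -0.01 without a call. Over all 15 alternative settings, Ndufaf1 lost its call under 6 and Ndufaf3 under 4. Ndufaf7, a mitochondrial methyltransferase, changed by -0.09 (95% interval -0.22 to 0.04) and Ndufaf8, a partner of NDUFAF5 in human cells, by -0.02 (interval -0.14 to 0.11), and neither passed the test. Of 10 assembly factors without an Nduf symbol, 9 were measured, and 3 fell (33.3%, against 18% of all genes) and 0 rose (against 11.3%) with rapamycin. Ecsit and Acad9, which work with Ndufaf1, changed by -0.60 ± 0.06 and -0.20 ± 0.06 (SE; adjusted p = 1.0e-05 and 0.031), and Tmem70, known for ATP synthase and complex I assembly, by -0.42 ± 0.06 (SE; adjusted p = 0.00012).

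**Figure D2:**
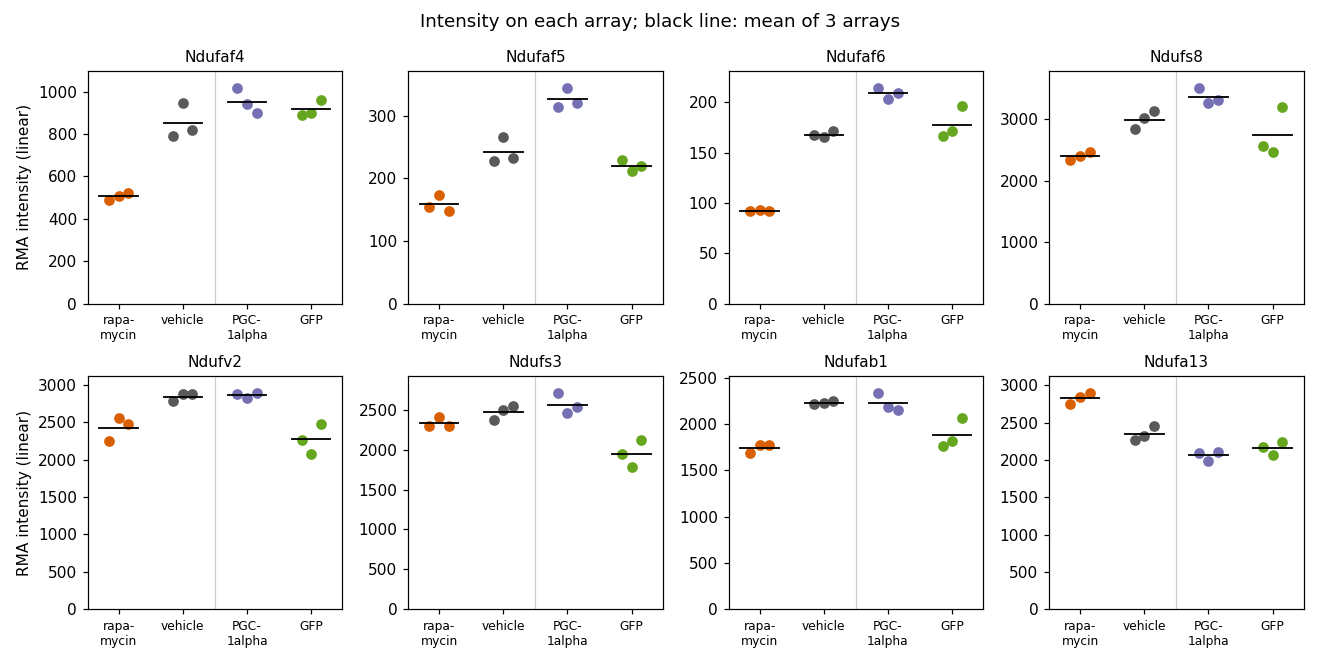
Intensity on a linear scale on each array for 8 Nduf genes, with groups on the x axis in the order rapamycin, vehicle, PGC-1alpha and GFP, points for the 3 arrays and a line for their mean. Rapamycin arrays lie below all vehicle arrays for Ndufaf4, Ndufaf5, Ndufaf6, Ndufs8, Ndufv2 and Ndufab1, and above them for Ndufa13, although with spike scaling Ndufa13 has no call. For Ndufaf5 all PGC-1alpha arrays, at 314 to 344, lie above all GFP arrays, at 211 to 229.

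Among the 9 core genes, 3 fell (33.3%) and 0 rose with rapamycin, and their median was -0.08. Of all genes 18% fell and 11.3% rose, and 38.5% and 16.7% of those with a mean log2 intensity of 10 or more. With spike scaling, which lowered 18556 of all 45037 probe sets, 7 core genes fell and 0 rose. The 3 that fell without it belong to the catalytic path to ubiquinone. Ndufs8, which carries iron-sulphur clusters in the quinone module, read 2332, 2402 and 2471 with rapamycin and 2831, 3013 and 3129 with vehicle. The groups were apart and the log2 change was -0.32 ± 0.06 (SE; adjusted p = 0.00098). A fall was called on 5 of the 6 probe sets of Ndufs8. Ndufv2, an iron-sulphur subunit of the NADH module, read 2251, 2559 and 2478 with rapamycin and 2784, 2875 and 2877 with vehicle, a change of -0.23 ± 0.06 (SE; adjusted p = 0.012). Ndufs7, which holds the last iron-sulphur cluster before ubiquinone, read 1109, 1226 and 1251 with rapamycin and 1290, 1368 and 1425 with vehicle. Its change of -0.19 ± 0.06 (SE; adjusted p = 0.044) was the called value nearest the threshold, and 5 of 15 alternative settings removed the call. The 6 measured nuclear catalytic subunits all had values below 0, from -0.32 for Ndufs8 to -0.06 for Ndufv1, which binds NADH and flavin. Values below 0 were also found for 26 of the 44 Nduf genes and 9973 of all 18193 genes. Ndufs1, Ndufs3 and Ndufv1 were near 0, at -0.08, -0.08 and -0.06, and had no call. The accessory subunits with a core symbol did not pass: Ndufs4 changed by 0.05, Ndufs5 by 0.05 and Ndufv3 by -0.09.

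The 27 accessory genes went both ways, with 8 raised (29.6%) and 7 fallen (25.9%) and a median of 0.01. Of all genes 11.3% rose and 18% fell, and 16.7% and 38.5% of those with a mean log2 intensity of 10 or more. With spike scaling, which lowered 18556 of all 45037 probe sets, 0 accessory genes rose and 13 fell. Ndufa1, a small membrane subunit, read 3867, 4102 and 4112 with rapamycin and 3229, 3305 and 3324 with vehicle. The groups were apart and the change was 0.29 ± 0.05 (SE; adjusted p = 0.001). Ndufa7 rose by 0.28 ± 0.06 (SE; adjusted p = 0.0022), and all 5 of its probe sets rose. Ndufa13, also known as GRIM-19, read 2745, 2848 and 2895 with rapamycin and 2263, 2326 and 2460 with vehicle, a change of 0.27 ± 0.06 (SE; adjusted p = 0.0026). Ndufa6, Ndufa2, Ndufa3, Ndufb3 and Ndufb11 rose by 0.18 to 0.24. With spike scaling none of the raised Nduf genes kept its call, while Ndufa1, Ndufa6, Ndufa7 and Ndufa13 kept it under the other 14 settings.

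On the lower side, Ndufab1, the mitochondrial acyl carrier protein, read 1689, 1777 and 1772 with rapamycin and 2213, 2229 and 2245 with vehicle. Its change of -0.35 ± 0.05 (SE; adjusted p = 0.0002) was the lowest among accessory genes. Of its 5 probe sets 4 fell, and 1, with a mean vehicle intensity of 19.9, rose. Ndufa5, Ndufa8, Ndufa9, Ndufb1, Ndufb6 and Ndufb10 fell by between 0.20 and 0.28 on the log2 scale. For Ndufb1 the groups overlapped, with 191, 203 and 227 on the rapamycin arrays and 271, 225 and 245 on the vehicle arrays. Ndufa3 was the other gene whose probe sets disagreed, as 2 rose and 1, with a mean vehicle intensity of 23.9, fell. Ndufb4 and Ndufa4l2 were dim on their single-symbol probe sets, at 21.8 to 31.9 and 123 to 151 over the 12 arrays, and did not pass. Of the brighter pair of probe sets shared by Ndufb4, Ndufb4b and Ndufb4c, 1 fell by 0.17 on the log2 scale (adjusted p = 0.047) and the other changed by -0.09 (adjusted p = 0.3), and neither value can be given to 1 of the 3 symbols.

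Sorted by module, the quinone module had 3 of 4 measured genes lowered and 0 raised, with a median of -0.23. The NADH module had 1 of 6 raised and 1 lowered, the proximal membrane arm 3 of 8 raised and 1 lowered (median 0.06), and the distal membrane arm, all 11 Ndufb genes, 2 raised and 3 lowered. Against these counts stand 11.3% raised and 18% lowered among all genes, and 16.7% and 38.5% among genes with a mean log2 intensity of 10 or more. The module lists leave out Ndufa4, Ndufa4l2, Ndufa6, Ndufa7, Ndufa9, Ndufa12 and Ndufab1. Of these Ndufa6 and Ndufa7 rose, Ndufa9 and Ndufab1 fell and the others had no call, so the module counts depend on the choice of lists. No test of the difference between modules was made. Over the 44 genes, all rapamycin arrays lay above all vehicle arrays for 11 genes, against 17.5% of all genes, and below them for 13, against 24.6% of all genes.

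With PGC-1alpha the direction was one-sided. By limma 9 of the 44 genes rose relative to GFP and 0 fell, 20.5% against 1.41% of all genes raised and 0.594% lowered. With spike scaling 4 rose and 0 fell, beside 296 raised and 29 lowered of all 45037 probe sets. The median was 0.14 over the 44 genes and 0.01 over all genes, and 40 of 44 values were above 0. Among genes with a mean log2 intensity of 10 or more, 24.1% of the Nduf genes and 3.31% of all genes rose, and 0 Nduf genes and 1.26% of all genes fell. All PGC-1alpha arrays lay above all GFP arrays for 21 genes, against 10.1% of all genes, and below them for 0, against 5.72% of all genes. The count rests on few arrays: it was 19 without GFP replicate 3, and 1 or 2 without any 1 of the other 5 arrays.

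Ndufaf5 had the highest value of the 44 and kept its call under all 15 alternative settings. It read 314, 344 and 320 on the PGC-1alpha arrays and 229, 211 and 220 on the GFP arrays. The groups were far apart, with a log2 change of 0.57 ± 0.06 (SE; adjusted p = 0.00076). No other Nduf assembly factor passed on its brightest probe set. Ndufaf4 changed by 0.05 (95% interval -0.09 to 0.19), with PGC-1alpha arrays at 1017, 941 and 898 and GFP arrays at 888, 900 and 962, although its dimmer probe set rose by 0.49 (adjusted p = 0.01). Ndufaf6 read 214, 203 and 209 with PGC-1alpha and 166, 171 and 196 with GFP, a change of 0.24 ± 0.07 (SE; adjusted p = 0.13). Of the assembly factors without an Nduf symbol 1 of 9 rose (11.1%, against 1.41% of all genes), Tmem70, by 0.31 ± 0.07 (SE; adjusted p = 0.032).

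Of the core genes, 2 of 9 rose (22.2%) and the median was 0.28. Of all genes 1.41% rose, and 3.31% of those with a mean log2 intensity of 10 or more. Ndufs3, a catalytic subunit of the quinone module, read 2710, 2459 and 2533 with PGC-1alpha and 1942, 1780 and 2118 with GFP. The groups did not overlap and the change was 0.40 ± 0.07 (SE; adjusted p = 0.014). Ndufv2 read 2882, 2828 and 2891 with PGC-1alpha and 2260, 2077 and 2485 with GFP, a change of 0.34 ± 0.07 (SE; adjusted p = 0.028). Ndufs3 lost its call under 4 of the 15 alternative settings and Ndufv2 under 7. For all 6 measured catalytic subunits every PGC-1alpha array lay above every GFP array, with values of 0.22 to 0.40. The groups were apart in this way for 10.1% of all genes and for 21 of the 44 Nduf genes. The same held for 8 of 9 complex III and 12 of 15 complex V genes. Ndufs7 missed the threshold narrowly at 0.33 ± 0.08 (SE; adjusted p = 0.051), as did Ndufv1 at 0.28 ± 0.07 (SE; adjusted p = 0.06). Ndufs8 changed by 0.30 ± 0.09 (SE; adjusted p = 0.13), and its arrays show where the spread lay: 3503, 3268 and 3302 with PGC-1alpha, and 2568, 2468 and 3202 with GFP, where replicate 3 was the high one. Among dimmer probe sets of these genes, 2 of the 6 of Ndufs8 rose, by 0.38 and 0.32 (adjusted p = 0.028 and 0.049), as did 1 of the 3 of Ndufv1, by 0.33.

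**Figure D3:**
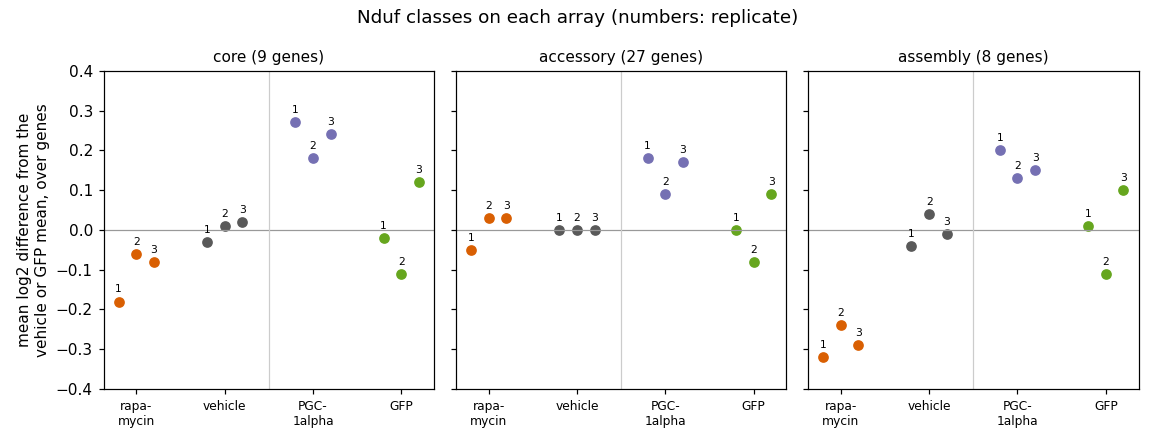
Mean log2 difference over the core, accessory and assembly genes on each array, taken from the vehicle mean for rapamycin and vehicle arrays and from the GFP mean for PGC-1alpha and GFP arrays, with the replicate number above each point. Assembly genes lie at -0.32 to -0.24 on rapamycin arrays, and core genes at 0.18 to 0.27 on PGC-1alpha arrays. GFP replicate 3 lies above the other GFP arrays in each class, at 0.09 to 0.12.

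The 6 accessory genes that rose with PGC-1alpha were Ndufa4, Ndufa6, Ndufb5, Ndufb6, Ndufb9 and Ndufb10, at 0.30 to 0.36 on the log2 scale with adjusted p-values of 0.022 to 0.042. They were 22.2% of the accessory genes, against 1.41% of all genes and 3.31% of those with a mean log2 intensity of 10 or more. Ndufa6, a subunit of the LYR family that also binds the acyl carrier protein, read 1608, 1551 and 1636 with PGC-1alpha and 1238, 1154 and 1370 with GFP. Ndufb9, another LYR subunit, read 3449, 3202 and 3433 with PGC-1alpha and 2632, 2419 and 2917 with GFP. In both, the groups were apart, but a rise was called on only 1 of the 3 probe sets of Ndufb9. For Ndufb5 and Ndufb6 it was called on 1 of 2 each. Each of the 6 genes lost its call under 5 to 8 of the 15 alternative settings. Of the 11 distal membrane arm genes 4 rose, and of the 8 proximal membrane arm genes 0 rose, with medians of 0.18 and 0.08. No test of this difference was made. Ndufa8 in the proximal arm missed the threshold narrowly at 0.30 (limma, adjusted p = 0.058). All PGC-1alpha arrays lay above all GFP arrays for 5 distal and 3 proximal genes, against 10.1% of all genes. Several accessory genes had intervals that leave little room for a large rise: Ndufa13 at -0.07 (95% interval -0.20 to 0.06), Ndufa7 at 0.05 (-0.09 to 0.19) and Ndufa2 at 0.02 (-0.11 to 0.16).

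The changes of the experiments were set against each other within a fit of all 12 arrays, as the rapamycin change minus the PGC-1alpha change. This difference was below 0 with a call in 18 of the 44 genes, against 16.5% of all genes, and above 0 in 1, against 7.59% of all genes. With spike scaling the counts were 30 and 0, but the median difference of all probe sets was itself -0.35. With quantile normalization over all 12 arrays the counts were 16 and 6. All 6 measured catalytic subunits were among the 18, at -0.61 to -0.31. The lowest differences were those of Ndufaf5 at -1.18 ± 0.10, Ndufaf6 at -1.10 ± 0.09 and Ndufaf4 at -0.80 ± 0.10 (SE; adjusted p = 1.5e-07, 6.0e-08 and 8.1e-06). Ndufa13 was the gene above 0, at 0.34 ± 0.08 (SE; adjusted p = 0.004), and at -0.02 without a call under spike scaling.

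**Figure D4:**
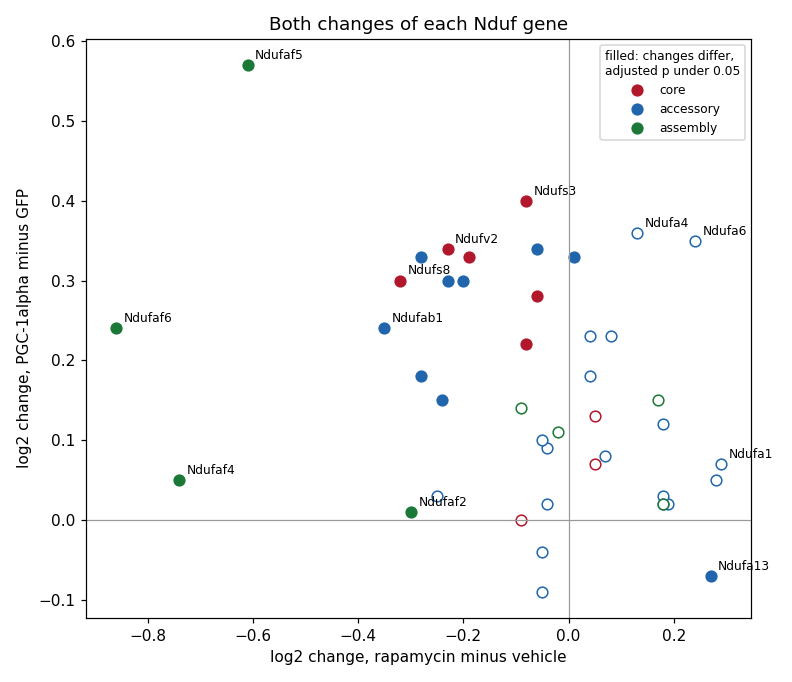
Log2 change with rapamycin (x axis) against log2 change with PGC-1alpha (y axis) for the 44 Nduf genes. Filled points are the 19 genes whose changes differed from each other with an adjusted p under 0.05. Ndufaf5 stands alone at the upper left (-0.61 and 0.57), Ndufaf4 lies low on the left (-0.74 and 0.05), and Ndufa13 is the filled point on the right, a call that spike scaling removes.

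Taking both comparisons gene by gene, Ndufaf5, Ndufb6, Ndufb10 and Ndufv2 fell with rapamycin and rose with PGC-1alpha. The second probe set of Ndufb6 had no call in either, at -0.00 and 0.12 (adjusted p = 0.99 and 0.59). For Ndufv2, 2 of 3 probe sets fell with rapamycin and 1 rose with PGC-1alpha. The PGC-1alpha calls of Ndufb6, Ndufb10 and Ndufv2 were lost under 8, 7 and 7 of the 15 alternative settings. Ndufa6 rose in both, though with spike scaling its rapamycin value of 0.05 had no call. A further 10 genes fell with rapamycin and had no call with PGC-1alpha, 9 rose with rapamycin with no call with PGC-1alpha, 4 (Ndufa4, Ndufb5, Ndufb9 and Ndufs3) rose with PGC-1alpha with no call with rapamycin, and 16 had no call in either. Across the 44 genes the pair of changes correlated at Pearson's r = -0.34 and Spearman's rho = -0.32, and across all 18193 genes at r = -0.23. The comparisons have different control arrays, and genes on the same arrays are not independent.

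Promoter sequences were read from RefSeq (GRCm38.p6), 250 bases before to 50 bases after the annotated start, for 39 of the 44 genes. The other 5, Ndufa2, Ndufa4l2, Ndufaf6, Ndufb9 and Ndufs1, had no promoter entry. Ndufaf6, the gene with the lowest rapamycin value, was therefore not searched. Searched on both strands, the letters AANATGGC, known as a YY1 motif, occurred in 13 of the 39 genes (33.3%) and in 7.46% of 17492 protein-coding genes. The NRF1 motif, GCGC followed by any base and TGCGC, occurred in 7 (17.9%, against 7.17%), the ETS motif CCGGAAG in 6 (15.4%, against 12.9%) and the ERR motif AAGGTCA in 3 (7.69%, against 4.73%). YY1 letters were in 4 of the 13 genes lowered with rapamycin (30.8%), 4 of 9 raised (44.4%) and 5 of 17 with no call (29.4%). NRF1 letters were in 4 of 13 lowered (30.8%), 1 of 9 raised (11.1%) and 2 of 17 with no call (11.8%). Of the 8 genes raised with PGC-1alpha, 2 (25%) had YY1, 2 NRF1, 2 ETS and 0 ERR letters. Of the 31 with no call there, 11 (35.5%) had YY1, 5 (16.1%) NRF1, 4 (12.9%) ETS and 3 (9.68%) ERR letters. ERR letters were also in 0 of the 13 genes lowered and 0 of the 9 raised with rapamycin. A match is a description of these letters in this window, not evidence of a bound site.

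The NRF1 matches of the 4 lowered genes are shown because they include Ndufaf4 and Ndufaf5, with the motif in capitals, each sequence 5' to 3' on the gene's strand. That of Ndufaf4 begins 113 bases before the start, that of Ndufa8 30 bases before, that of Ndufaf5 16 bases after, and that of Ndufa5 26 bases before the start of 1 of its windows and 190 before that of the other. The Ndufa5 match lies on the opposite strand, so its capitals are the reverse complement of the motif.
Ndufaf4, chr4:24897933-24898082, plus strand, the 150 bases before the start: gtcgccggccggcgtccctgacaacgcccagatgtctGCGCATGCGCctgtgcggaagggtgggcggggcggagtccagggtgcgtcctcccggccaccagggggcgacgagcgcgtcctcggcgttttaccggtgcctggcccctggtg
Ndufaf5, chr2:140170652-140170681, plus strand: agtcccgttgGCGCATGCGCctaatagaaa
Ndufa5, chr6:24527697-24527726, minus strand: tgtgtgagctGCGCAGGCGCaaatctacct
Ndufa8, chr2:36049349-36049378, minus strand: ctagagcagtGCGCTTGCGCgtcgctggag

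For YY1, 7 of the 13 genes had the letters AAGATGGC after the start, at 10 to 38 bases: Ndufa3, Ndufa9, Ndufaf8, Ndufb8, Ndufc1, Ndufs4 and Ndufs7. The following 4 are shown because the letters and the place are alike while the rapamycin calls are not: Ndufs7 and Ndufa9 fell, Ndufa3 rose (at -0.01 without a call under spike scaling), and Ndufs4 had no call, though 1 of its 4 probe sets, with a mean vehicle intensity of 36.6, fell by 0.24 on the log2 scale. The letters contain ATG, and whether a match holds the start codon was not tested.
Ndufs7, chr10:80249462-80249491, plus strand: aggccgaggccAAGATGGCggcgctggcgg
Ndufa9, chr6:126849097-126849126, minus strand: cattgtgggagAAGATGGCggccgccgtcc
Ndufa3, chr7:3617384-3617413, plus strand: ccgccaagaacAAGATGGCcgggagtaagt
Ndufs4, chr13:114388045-114388074, minus strand: gcgtttgcctacaggAAGATGGCggcggtc

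Ndufs3, the core gene with the highest PGC-1alpha value, had an ETS match 27 bases before its start and another at its start, and none for YY1, NRF1 or ERR. Its upstream sequence is given with the first of these in capitals.
Ndufs3, chr2:90904722-90904871, minus strand, the 150 bases before the start: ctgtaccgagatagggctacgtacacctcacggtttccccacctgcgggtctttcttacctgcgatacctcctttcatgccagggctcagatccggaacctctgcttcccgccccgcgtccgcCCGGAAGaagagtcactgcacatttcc

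The levels of the factors themselves were read from the brightest probe set of each gene. With rapamycin Pprc1, Nrf1, Tfam and Ppargc1b, which encode a PGC-1-related coactivator, NRF1, the mitochondrial transcription factor A and PGC-1beta, changed by -0.52, -0.40, -0.36 and -0.18 (adjusted p = 1.9e-05, 0.00014, 0.00044 and 0.049). The probe sets of Nrf1 disagreed. Another changed by -0.35 (adjusted p = 0.00037), while the rest changed by -0.12 and 0.06 without a call (adjusted p = 0.12 and 0.51). For Ppargc1a the brightest probe set over 12 arrays, which owes that rank to the PGC-1alpha arrays, changed by -0.13 ± 0.07 (SE; adjusted p = 0.19), while 3 of its 5 probe sets fell by 0.30 to 0.35. These include the brightest on the rapamycin and vehicle arrays, which averaged 51.2 with rapamycin and 63.4 with vehicle, a level below the array median (log2 change -0.31 ± 0.06, SE; adjusted p = 0.0022). Yy1 changed by -0.11 ± 0.06 (SE; adjusted p = 0.16) on its brightest probe set and fell on 3 dimmer ones by 0.43 to 0.56. Esrra, which encodes ERR-alpha, rose with PGC-1alpha by 0.36 ± 0.06 (SE; adjusted p = 0.011). Gabpa, Nrf1, Yy1 and Tfam did not pass with PGC-1alpha.

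Beside complex I, the other respiratory complexes were counted from lists of their subunits. With rapamycin, complex II had 0 of 4 raised and 1 lowered, complex III 1 of 9 raised and 3 lowered, complex IV 2 of 9 raised and 1 lowered, and complex V 1 of 15 raised and 4 lowered. Over all genes 11.3% were raised and 18% lowered, and with so few genes in each list nothing is read from its counts. With PGC-1alpha 3 of 4, 4 of 9, 2 of 9 and 5 of 15 rose and none fell, where 1.41% of all genes rose and 0.594% fell. Cyc1, the cytochrome c1 subunit of complex III, changed by -0.63 with rapamycin (adjusted p = 6.5e-06) and by 0.37 with PGC-1alpha (adjusted p = 0.013), and Atp5g1, a ring subunit of ATP synthase, by -0.49 and 0.40 (adjusted p = 2.4e-05 and 0.0092). The share of Nduf genes called with PGC-1alpha, 20.5%, lay below that of complex III at 44.4%, and no test of this difference was made.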

How the data were processed

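RNA of 12 cultures was hybridised to Affymetrix MOE430 v2 arrays. For each probe set the authors deposited 1 intensity per array; per the series' design text it comes from RMA at default settings in BioConductor 1.2, run apart for each experiment. The sources used here do not give its scale; values of 9.3 to 21072 were read as linear. They were turned into log2 values without a pseudocount. Of 45101 probe sets, 64 controls were left out and 45037 tested with no filter. Symbols came from the platform annotation; all 44 Entrez IDs were found in the RefSeq table of GRCm38.p6.

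The 6 arrays of a comparison, and all 12 for the difference of the changes, were fitted with limma 3.58.1 (lmFit, eBayes) in R 4.3.3; p-values are two-sided and Benjamini-Hochberg adjusted over all probe sets, with a threshold of 0.05. Tables were made with pandas 2.3.3 in Python 3.11.15 and figures with matplotlib 3.10.9. The fit was tested on simulated data. Intervals are limma's 95% intervals. Every Nduf gene could be named; of other lists, members past the threshold with the largest changes (up to 4 per direction), or the 2 with the smallest p where none passed, and 8 fixed regulators. Members and lists were chosen with earlier results of these data known. Alternatives were a pseudocount of 16, a log2 filter at 6, quantile normalization over 12 arrays, scaling on 18 bacterial spike probe sets, a 12-array fit, a replicate block, an intensity trend, other choices of probe set, and leaving out each array. RMA makes arrays of a batch alike in distribution, so a change in total RNA per cell would not be seen. The number of arrays limits the precision, and no detection calls were used.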

Additional observations from a re-analysis of the deposited data

How the results depend on the processing

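With spike scaling the rapamycin comparison called 20004 probe sets instead of 11469 and the median Nduf change was -0.24 instead of -0.05; Ndufa2, Ndufa3, Ndufaf1, Ndufaf3, Ndufb11 and Ndufb3 turned to -0.00, -0.01, -0.02, -0.01, -0.01 and -0.01, the difference between the experiments turned to -0.02 for Ndufa13 and was called in 30 Nduf genes instead of 19, the PGC-1alpha comparison called 325 probe sets instead of 879 and 4 Nduf genes instead of 9, and its median Nduf change was 0.31 instead of 0.14. The spike setting subtracts 1 value per array, which moves all genes alike. That value comes from spikes read after RMA, so it does not measure RNA per cell. It also varied between arrays of the same group. The spike means of PGC-1alpha and GFP arrays overlapped, while those of all rapamycin arrays lay above those of all vehicle arrays. Quantile normalization over 12 arrays gave a rapamycin median of 0.01, with 13 Nduf genes raised and 11 lowered. For PGC-1alpha, the 12-array fit called 1485 probe sets and 15 Nduf genes, the mean over probe sets 5 Nduf genes and the pseudocount of 16 gave 4; the cause was not tested. Leaving out 1 array gave 283 to 2837 probe sets and 1 to 19 Nduf genes for PGC-1alpha, both highest without GFP replicate 3, and 16 to 21 Nduf genes for rapamycin. Of the 14 Nduf genes lowered with rapamycin, 11 kept their call under all 15 settings; Ndufb1, Ndufb6 and Ndufs7 lost it under 5.

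Deviations of same-numbered arrays from their group means correlated at -0.05, 0.07 and 0.00 for rapamycin with vehicle. For PGC-1alpha with GFP the correlations were -0.13, 0.23 and -0.01. With so few arrays per group these values cannot show whether same-numbered arrays shared a culture or batch. Whether the numbers pair the arrays is therefore not known. With the replicate number as a block, 11371 and 831 probe sets and 24 and 11 Nduf genes were called, and 19 for the difference. Choosing the probe set brightest on 6 arrays has no value for the difference, which uses 12.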
